A study of Mus musculus with 4 samples.

Results

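The genes of the mitochondrial ribosomal proteins were followed through the open chromatin of 4 mouse skeletal muscles. Peaks were taken as members when the gene named for them began with Mrpl or Mrps and a digit. This gave 365 of the 120839 peaks in the 4 lists: 92 of 30136 in the extensor digitorum longus (EDL), 111 of 40337 in the quadriceps (Quad), 90 of 28784 in the soleus (Sol) and 72 of 21582 in the diaphragm (Dia). They were named for 70 of the 78 protein-coding genes with such symbols in the RefSeq annotation of the mouse genome. The other 8 genes (Mrpl27, Mrpl32, Mrpl43, Mrpl51, Mrps5, Mrps7, Mrps26 and Mrps34) had no peak named for them in any list.

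The assay was ATAC-seq: a transposase (Tn5) cuts and tags accessible DNA, so that nucleosome-free stretches are read most often. All 4 muscles came from mice labelled as wild-type C57BL/6 and described as sedentary, and the study's methods state that its mice were male C57BL/6J. EDL and Quad are mostly fast and glycolytic, Sol is slow and oxidative, and Dia contracts without pause for breathing. For each muscle 1 library was analysed, labelled as pooled, so no test between muscles was possible and every difference described these 4 libraries. Peak scores, the authors' tag counts scaled per library, moved in steps that correspond to 1 tag; if HOMER's usual scale of 10 M tags was used, the libraries held 78.1 M tags (Quad) to 105 M tags (Sol), and the lowest peak in a list held 25 to 36 tags. The longest list, Quad, came from the shallowest library. Of 8 skeletal muscle marker genes, 8 (EDL), 7 (Quad), 6 (Sol) and 3 (Dia) had a promoter peak; these numbers were 2, 4, 2 and 0 of 4 fast fibre markers, 0, 0, 1 and 0 of 4 slow fibre markers, and 4, 4, 4 and 2 of 4 endothelial markers. Leukocyte and adipocyte markers had a promoter peak in no list, and of 4 fibroblast markers 1 had one in Sol and another in Dia. Over all protein-coding genes, 38.6% (EDL), 42.3% (Quad), 38.4% (Sol) and 37.8% (Dia) had a promoter peak named for them. The 3 of 8 muscle markers in Dia were near that share, and sets of 4 markers are too small to identify a fibre or cell type. In bulk tissue, a promoter open in more nuclei and a promoter more open in each nucleus cannot be told apart.

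Mitochondria hold their own ribosome, which translates the few messenger RNAs encoded by mitochondrial DNA, all of them for subunits of the respiratory chain and the ATP synthase. Its ribosomal RNAs come from the mitochondrial genome, whereas each of its proteins is encoded in the nucleus, made in the cytosol and imported. Part of these proteins descend from ribosomal proteins of bacteria, and the rest were acquired by mitochondria. The gene symbols follow the subunit in which the protein was first placed (Mrpl for large, Mrps for small), although Mrps18a and Mrps30 are now assigned to the large subunit and Mrps36 to the oxoglutarate dehydrogenase complex.

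Sequences of 10 promoters frame the results. They are given 5′ to 3′ on the strand of the gene from GRCm38.p6 (the assembly behind mm10), with promoters from RefSeq. Capitals mark matches, on either strand, to 6 motifs: NRF1 (GCGCATGC), ETS (CCGGAAG), YY1 (AAGATGGC), SP1 (GGGCGG), the E-box (CACGTG) and an ERR site (AAGGTCA). The E-box reads the same on both strands, matches to NRF1 on opposite strands can overlap, and YY1 and ETS matches can share bases at their ends. The first 4 are the EDL peaks of the members whose promoter peaks ranked highest on average over the muscles, each 209 bases.
Mrps18b (EDL peak, chr17:35916662-35916870, minus strand): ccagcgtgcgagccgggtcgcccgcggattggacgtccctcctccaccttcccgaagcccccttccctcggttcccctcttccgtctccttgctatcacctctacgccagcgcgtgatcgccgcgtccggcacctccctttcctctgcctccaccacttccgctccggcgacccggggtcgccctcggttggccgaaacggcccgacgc
Mrps16 (EDL peak, chr14:20393622-20393830, minus strand): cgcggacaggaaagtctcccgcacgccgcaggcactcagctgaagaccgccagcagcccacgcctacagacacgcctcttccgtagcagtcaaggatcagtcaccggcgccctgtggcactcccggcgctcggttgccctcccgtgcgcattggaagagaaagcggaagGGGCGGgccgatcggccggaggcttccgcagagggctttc
Mrps14 (EDL peak, chr1:160194951-160195159, plus strand): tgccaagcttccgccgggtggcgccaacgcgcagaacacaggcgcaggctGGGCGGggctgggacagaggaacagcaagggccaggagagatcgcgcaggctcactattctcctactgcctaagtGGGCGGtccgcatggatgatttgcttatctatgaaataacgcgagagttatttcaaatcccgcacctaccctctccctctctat
Mrpl34 (EDL peak, chr8:71464817-71465025, plus strand): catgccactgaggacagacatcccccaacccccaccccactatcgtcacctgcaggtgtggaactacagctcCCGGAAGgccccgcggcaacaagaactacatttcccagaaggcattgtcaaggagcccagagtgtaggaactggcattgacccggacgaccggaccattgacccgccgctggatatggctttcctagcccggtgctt

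The next 6 are reference promoters, from 250 bases before to 50 bases after the start of the gene. Mrpl43, Mrpl32, Mrps12, Mrps11 and Mrpl18 are shown because a second gene starts inside the printed stretch and runs the other way, at 116, 205, 147, 42 and 238 bp upstream of the member; the peaks there were mostly named for that second gene. Mrpl9 is shown because its rank differed most between muscles.
Mrpl43 (promoter, chr19:45006393-45006692, minus strand): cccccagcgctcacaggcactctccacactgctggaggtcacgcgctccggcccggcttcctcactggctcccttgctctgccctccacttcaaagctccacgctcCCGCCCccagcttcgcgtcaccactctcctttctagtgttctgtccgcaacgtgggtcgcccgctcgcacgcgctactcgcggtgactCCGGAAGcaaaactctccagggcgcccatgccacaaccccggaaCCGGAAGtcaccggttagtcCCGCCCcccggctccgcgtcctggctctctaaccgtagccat
Mrpl32 (promoter, chr13:14612988-14613287, minus strand): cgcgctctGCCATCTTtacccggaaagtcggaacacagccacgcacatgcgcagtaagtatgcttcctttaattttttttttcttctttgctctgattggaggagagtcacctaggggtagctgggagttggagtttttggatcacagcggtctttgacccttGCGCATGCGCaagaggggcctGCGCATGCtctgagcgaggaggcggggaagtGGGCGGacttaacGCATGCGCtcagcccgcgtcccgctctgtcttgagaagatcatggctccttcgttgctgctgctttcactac
Mrps12 (promoter, chr7:28741772-28742071, minus strand): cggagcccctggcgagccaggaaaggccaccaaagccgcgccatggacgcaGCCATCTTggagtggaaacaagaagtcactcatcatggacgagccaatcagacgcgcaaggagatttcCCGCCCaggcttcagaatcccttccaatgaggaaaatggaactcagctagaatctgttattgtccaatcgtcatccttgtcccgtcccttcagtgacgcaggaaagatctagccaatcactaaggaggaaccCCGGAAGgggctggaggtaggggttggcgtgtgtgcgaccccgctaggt
Mrps11 (promoter, chr7:78782881-78783180, plus strand): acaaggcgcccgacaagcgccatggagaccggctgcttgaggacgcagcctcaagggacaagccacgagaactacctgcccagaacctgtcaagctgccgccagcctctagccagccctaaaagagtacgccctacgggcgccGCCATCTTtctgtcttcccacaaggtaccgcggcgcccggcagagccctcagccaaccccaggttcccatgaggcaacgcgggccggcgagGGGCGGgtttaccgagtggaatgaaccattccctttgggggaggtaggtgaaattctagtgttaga
Mrpl18 (promoter, chr17:12916042-12916341, minus strand): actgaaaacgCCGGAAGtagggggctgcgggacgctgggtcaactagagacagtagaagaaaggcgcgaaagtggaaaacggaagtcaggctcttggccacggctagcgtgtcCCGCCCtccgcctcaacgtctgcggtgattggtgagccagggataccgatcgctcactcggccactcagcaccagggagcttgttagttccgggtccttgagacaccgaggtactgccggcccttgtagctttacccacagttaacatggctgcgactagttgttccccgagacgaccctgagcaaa
Mrpl9 (promoter, chr3:94443086-94443385, plus strand): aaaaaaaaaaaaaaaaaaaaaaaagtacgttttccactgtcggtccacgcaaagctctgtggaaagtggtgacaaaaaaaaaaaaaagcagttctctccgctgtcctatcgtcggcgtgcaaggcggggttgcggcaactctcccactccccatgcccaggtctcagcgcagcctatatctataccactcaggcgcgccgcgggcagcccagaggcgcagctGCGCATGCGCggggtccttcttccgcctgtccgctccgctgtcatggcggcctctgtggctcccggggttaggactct

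These sequences differed in the motifs they held. The Mrps18b peak held none of the 6, the Mrps16 peak 1 SP1 match, the Mrps14 peak 2 SP1 matches and the Mrpl34 peak 1 ETS match. The Mrpl32 promoter held 4 NRF1 matches, at 87, 85, 66 and 22 bases before the start, and Mrpl9 held 2 that overlapped, at 28 and 26 bases before the start. The Mrpl43 promoter held ETS matches at 56 and 12 bases before the start. In Mrps12 an ETS match began 1 base after the first base of the gene, with a YY1 match 199 bases before the start.

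The first question was how many of these genes had an open promoter in each muscle. A promoter peak is one that the authors' annotation placed between 1 kb upstream and 100 bp downstream of a transcription start site (TSS) and named for the nearest gene. By that name, 43 of the 78 genes (55.1%, 95% Wilson interval 44.1% to 65.7%) had a promoter peak in EDL, where 38.6% of all 21883 protein-coding genes had one. In Quad 46 genes had one (59.0%, 47.9% to 69.2%) against 42.3% of all genes. In Sol it was 50 genes (64.1%, 53.0% to 73.9%) against 38.4%, and in Dia 44 (56.4%, 45.4% to 66.9%) against 37.8%. Thus the Sol list, with fewer peaks than EDL or Quad, named the most members, and the intervals of the 4 muscles overlapped. A promoter peak in all 4 lists was named for 33 members (42.3%, 32.0% to 53.4%), against 30.8% of all genes. A further 25 members had one in 1 to 3 lists and 20 had none. Intervals here and below cover counting error only.

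The name of a peak decided much of that count. When any peak that overlapped the promoter window of a member was accepted, whichever gene it was named for, 71 of 78 members had one in EDL (91.0%, 82.6% to 95.6%), 69 in Quad (88.5%, 79.5% to 93.8%), 67 in Sol (85.9%, 76.5% to 91.9%) and 66 in Dia (84.6%, 75% to 91.0%). Over all protein-coding genes the same rule gave 44.7%, 48.5%, 44.8% and 44.3%. All 4 lists held such a peak for 61 members (78.2%, 67.8% to 85.9%), against 39.0% of all genes. By position the number of members rose by 28 in EDL, by 23 in Quad and by 22 in Dia; in Sol 18 were gained and Mrpl57 was lost. Of the 20 members with no promoter peak to their name, 13 had a peak in their promoter window in all 4 lists. Order between muscles also changed, with Sol first by name and EDL first by position.

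**Figure D1:**
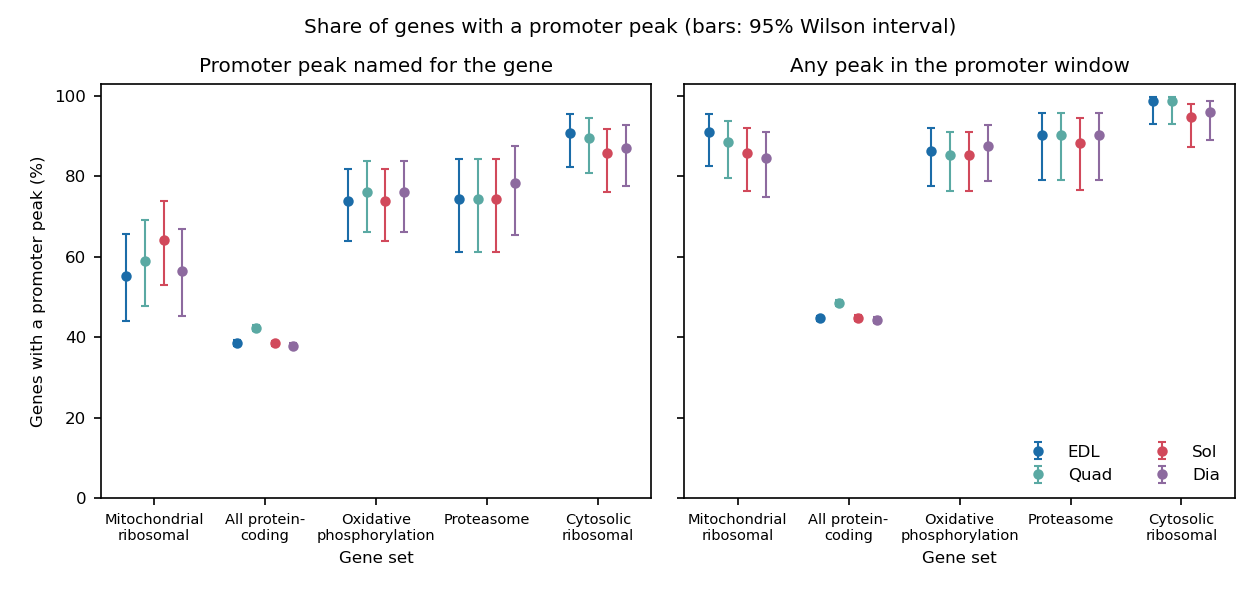
Share of genes with a promoter peak (vertical axis, percent) for 5 gene sets in each muscle, by the gene named for the peak (left) and by any peak in the promoter window (right); points are 1 library each and bars are 95% Wilson intervals over genes. Mitochondrial ribosomal genes lay at 55.1% to 64.1% on the left and at 84.6% to 91.0% on the right.

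For comparison, 3 other sets of genes were counted the same way. They were picked by symbol alone, without regard to the tissues in which a gene is used. By name, the 77 cytosolic ribosomal protein genes had a promoter peak in 85.7% (Sol) to 90.9% (EDL), the 51 proteasome genes in 74.5% to 78.4%, and the 88 nuclear oxidative phosphorylation genes in 73.9% to 76.1%. The mitochondrial ribosomal genes, at 55.1% to 64.1%, had the lowest share of the 4 sets in each muscle. By position the proteasome genes reached 88.2% to 90.2% and the oxidative phosphorylation genes 85.2% to 87.5%, which overlapped the 84.6% to 91.0% of the mitochondrial ribosomal genes. The cytosolic ribosomal genes stayed higher, at 94.8% to 98.7%.

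The gained promoters were mostly those of gene pairs that start back to back. A head-to-head neighbour was counted where another gene started on the other strand, from 1 kb upstream to 100 bp inside the member. Such a neighbour was present for 31 of the 78 members (39.7%, 29.6% to 50.8%), against 2517 of all 21883 protein-coding genes (11.5%). The share was 19.5% for cytosolic ribosomal genes (15 of 77), 21.6% for proteasome genes (11 of 51) and 30.7% for oxidative phosphorylation genes (27 of 88). Over the 31 members the median gap to the paired start was 116 bp, with a range from an overlap of 36 bp to 935 bp. The gap was within 350 bp for 28 of the 31. Mrpl46 and Mrps11 are each other's neighbour, so their gap counts for both. Of the members gained by position, such a neighbour was present for 25 of 28 in EDL and 20 of 23 in Quad, and for 16 of 18 in Sol and 19 of 22 in Dia. Members with a neighbour had a promoter peak to their own name in 5 (EDL), 10 (Quad), 12 (Sol) and 10 (Dia) of 31 cases, but a peak in their window in 30, 30, 27 and 29. The 47 members without a neighbour had 38, 36, 38 and 34 by name and 41, 39, 40 and 37 by position. This split is not set beside that of all protein-coding genes, so it describes how peaks at paired starts were named and marks no trait of the members. A peak between paired starts cannot be assigned to either gene from these data.

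**Figure D2:**
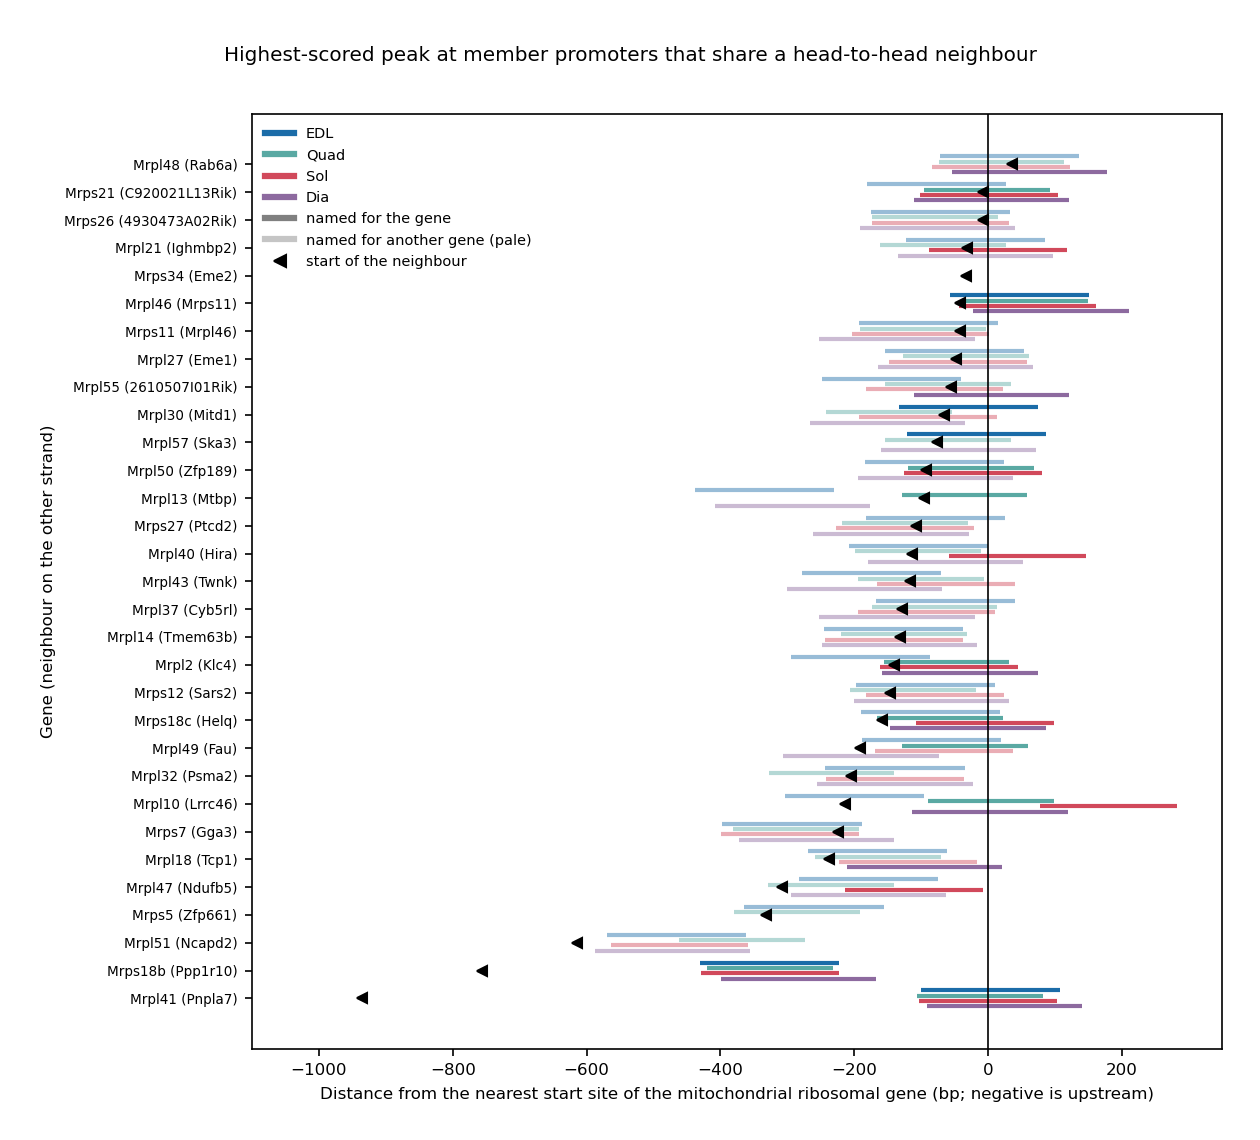
Highest-scored peak in the promoter window of the 31 members with a head-to-head neighbour (rows, neighbour in brackets), drawn by its distance in bp from the nearest start site of the member; colours are muscles, pale bars are peaks named for another gene, and triangles mark the start of the neighbour. Most bars are pale and lie over or between the starts; Mrps34 has none, and the dark Dia bar of Mrpl48 lies at another start site of that gene.

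Some of the neighbours, picked here as examples, serve mitochondria or protein turnover. The neighbours as a whole were not sorted by function, so these examples mark no trait of the set. Mrps12, a protein of the decoding site, faces Sars2, the mitochondrial seryl-tRNA synthetase; the peak between them was named Sars2 in every list and stood at percentiles 99.0 (EDL), 99.2 (Quad), 97.6 (Sol) and 97.8 (Dia) of the scores. A percentile is the rank of a peak's score within its own list, from 0 for the lowest to 100 for the highest. Mrpl43 faces Twnk, the helicase that unwinds mitochondrial DNA, with percentiles of 76.3, 73.3, 63.2 and 65.6 in the same order. Mrpl32, which an inner membrane protease matures, faces the proteasome gene Psma2, with 86.9, 76.4, 79.2 and 81.2. All 3 promoter windows thus held a peak in every muscle, without a promoter peak to the name of the member in any.

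Mrpl46 and Mrps11 face each other over 42 bp and share 1 peak, named Mrpl46 in each list, at percentiles 74.9 (EDL), 77.5 (Quad), 51.0 (Sol) and 53.4 (Dia). It ranked lower in Sol and Dia than in EDL and Quad, although the counting intervals of the 4 values overlapped. Mrpl18, of the large subunit, faces Tcp1 of the cytosolic chaperonin; the peak was named Tcp1 in EDL (99.6), Quad (99.9) and Sol (99.7) and Mrpl18 in Dia (98.9). Mrpl47 faces Ndufb5, a subunit of respiratory complex I, with 97.6, 92.3, 86.4 and 89.3, and carried its own name in Sol only. The name therefore switched between muscles at promoter windows that held a peak in all of them.

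Further windows with a peak in all 4 lists named for a neighbour were those of Mrpl14 (Tmem63b, percentiles 49.7 to 68.2), Mrpl27 (Eme1, 43.2 to 64.9), Mrpl37 (Cyb5rl, 91.7 to 96.7), Mrpl51 (Ncapd2, 96.3 to 97.8), Mrps7 (Gga3, 82.3 to 89.4), Mrps26 (4930473A02Rik, 88.4 to 93.8) and Mrps27 (Ptcd2, 63.2 to 89.8). None of these 7 genes had a promoter peak to its name. Names were mixed for Mrpl2, Mrpl10, Mrpl21, Mrpl30, Mrpl40, Mrpl48, Mrpl49, Mrpl50, Mrpl55, Mrpl57, Mrps18c and Mrps21, which carried their own in 1 to 3 lists. Among these, Mrpl50 stood at 96.4, 96.1, 92.1 and 96.1 in EDL, Quad, Sol and Dia, and Mrpl49, which faces the cytosolic ribosomal protein gene Fau, at 72.9, 76.9, 73.7 and 65.6. Mrpl2, at the catalytic core of the large subunit, stood at 78.8, 83.3, 74.7 and 76.8, Mrpl40 at 72.4, 83.3, 76.6 and 81.6 and Mrpl30 at 69.6, 65.8, 67.9 and 78.4. Mrps21 stood at 73.4, 62.1, 71.6 and 63.5, Mrpl55 at 66.4, 69.0, 69.9 and 59.2, Mrpl21 at 72.4, 66.6, 59.4 and 47.6 and Mrps18c at 68.4, 69.0, 53.7 and 44.1. In Mrpl21 and Mrps18c the Dia peak ranked lowest, whereas in Mrpl30 it ranked highest. Mrps6, a small subunit protein with a bacterial counterpart, has no head-to-head neighbour; the peak in its window was named for Slc5a3, a myo-inositol transporter gene, and stood at 63.9 (EDL), 91.7 (Quad), 68.6 (Sol) and 67.5 (Dia). The counting interval of the Quad value (87.0 to 94.8) lay above those of the other muscles, the highest of which ended at 79.4.

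**Figure D3:**
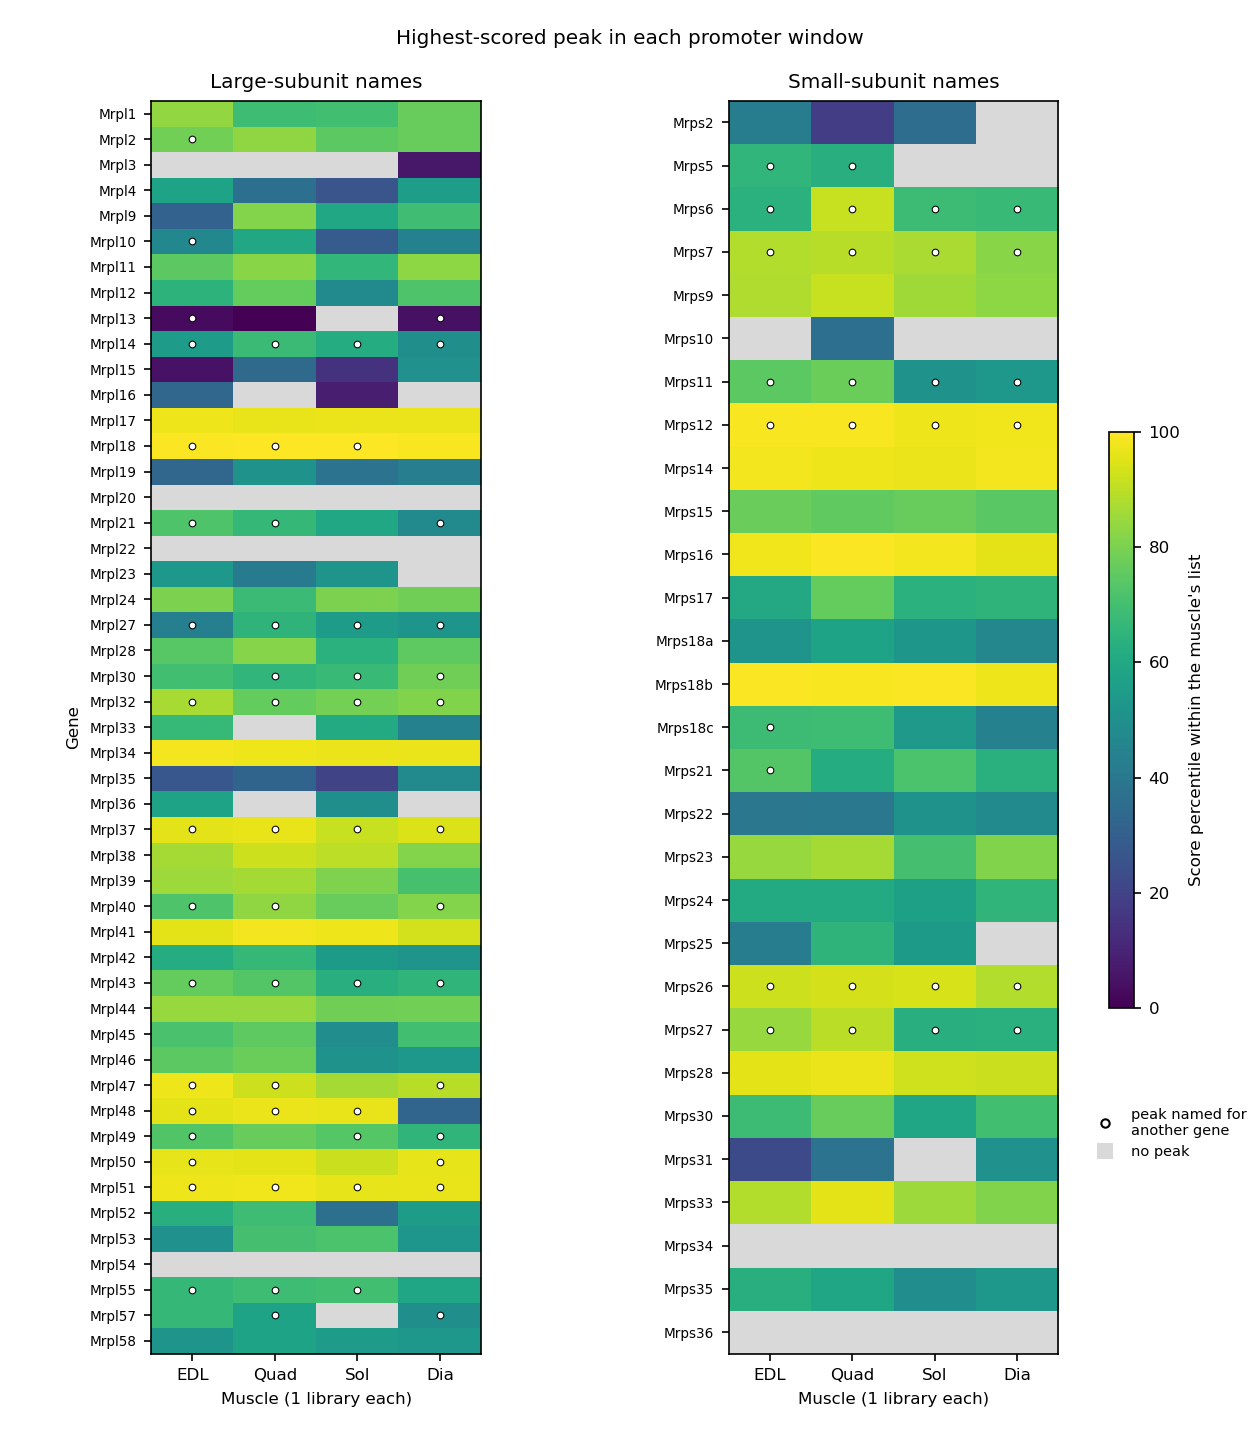
Score percentile (colour, 0 to 100) of the highest-scored peak in the promoter window of each of the 78 members (rows) in each muscle (columns, 1 library each); grey marks no peak, and a white point marks a peak named for another gene. In 61 rows all 4 cells are coloured, and in 5 rows all are grey.

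The 5 members without a peak in the promoter window of any list were Mrpl20, Mrpl22, Mrpl54, Mrps34 and Mrps36. For 3 of them a peak lay just inside the gene in all 4 muscles. In Mrps36 it was in intron 1, centred 441 to 470 bp after the start, at percentiles 92.5 (EDL), 95.1 (Quad), 93.9 (Sol) and 90.7 (Dia). In Mrpl54 it was in intron 1, 238 to 256 bp after the start, at 81.1, 87.1, 81.6 and 80.5. In Mrpl20 it was in exon 2, 613 to 684 bp after the start, at 71.3, 60.1, 58.6 and 64.9. Those peaks lay past the downstream edge of the window. Mrpl22 had only a weak intronic peak in Quad (percentile 7.89, 214 bp after the start), and Mrps34, which faces Eme2 over 33 bp, had no peak of any class to its name and none in its window.

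Other gaps were also edges or weak peaks. Mrpl45 had its peak 107 to 130 bp after the start in all 4 lists, annotated to the 5′ UTR, at percentiles 71.3 (EDL), 75.2 (Quad), 49.0 (Sol) and 69.8 (Dia). Mrpl44, a protein related to RNase III, lacked a promoter peak in Quad, since its Quad peak (84.7) was centred 106 bp after the start; in EDL, Sol and Dia it stood at 84.5, 78.3 and 78.7. Mrpl33 had promoter peaks at 67.1 in EDL, 61.0 in Sol and 44.1 in Dia, and in Quad a peak at 70.5 centred 238 bp after the start. Mrpl36 had promoter peaks at 57.9 in EDL and 50 in Sol, a peak at 74.6 in intron 1 in Quad, centred 215 bp after the start, and none in Dia. In these 4 genes the lists that lacked a promoter peak held a peak centred past the promoter window instead, except for Mrpl36 in Dia.

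A second kind of gap held low scores. Mrpl13 had peaks at percentiles 3.0 in EDL, 0.37 in Quad and 4.7 in Dia and none in Sol, with 28 to 43 tags each. Mrpl16 had 33.0 in EDL and 8.2 in Sol, with no peak in Quad or Dia. Mrpl3, a core large subunit protein, had a peak in its window in Dia only, in an exon at percentile 6.36. Of the other genes with a peak in 1 to 3 lists by position, Mrpl23 (41.8 to 53.4), Mrps2 (18 to 42.1), Mrps10 (36.4), Mrps25 (42.1 to 64.9) and Mrps31 (22.3 to 50.6) lay in the lower and middle ranks, as did Mrpl57 (49.7 to 66.4) and Mrps5 (63.0 and 65.8). No member missing from a list by position stood above percentile 67.1 in its promoter window in the lists that had it, and a missing peak says only that none was detected at this depth.

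The next measure was how strong the promoter peaks were within each list. By name, the median percentile of the best promoter peak was 67.1 in EDL (95% interval of the median 60.3 to 80.3, n = 43 genes), 73.1 in Quad (62.1 to 81.7, n = 46), 62.5 in Sol (54.5 to 74.7, n = 50) and 69.6 in Dia (55.1 to 76.8, n = 44). Over all protein-coding genes with a promoter peak it was 77.1, 82.1, 76.6 and 74.6. Cytosolic ribosomal genes had medians of 86.1, 86.8, 82.7 and 80.1, and oxidative phosphorylation genes 82.1, 85.9, 80.3 and 75.5. Among genes with a promoter peak, the members therefore had the lower median in each muscle, and in EDL and Dia their interval reached the value of all genes. By position the medians of the members were 72.4, 76.4, 67.9 and 69.6, against 77.6, 82.9, 77.0 and 75.1 for all genes. Their intervals by position (65.8 to 78.8, 69.0 to 83.3, 59.4 to 74.7 and 59.2 to 78.4) reached the value of all genes in EDL, Quad and Dia, so the difference in Quad depended on the naming rule. Ranked among promoter peaks alone, the members had medians by name of 38.0, 37.6, 32.9 and 43.3.

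**Figure D4:**
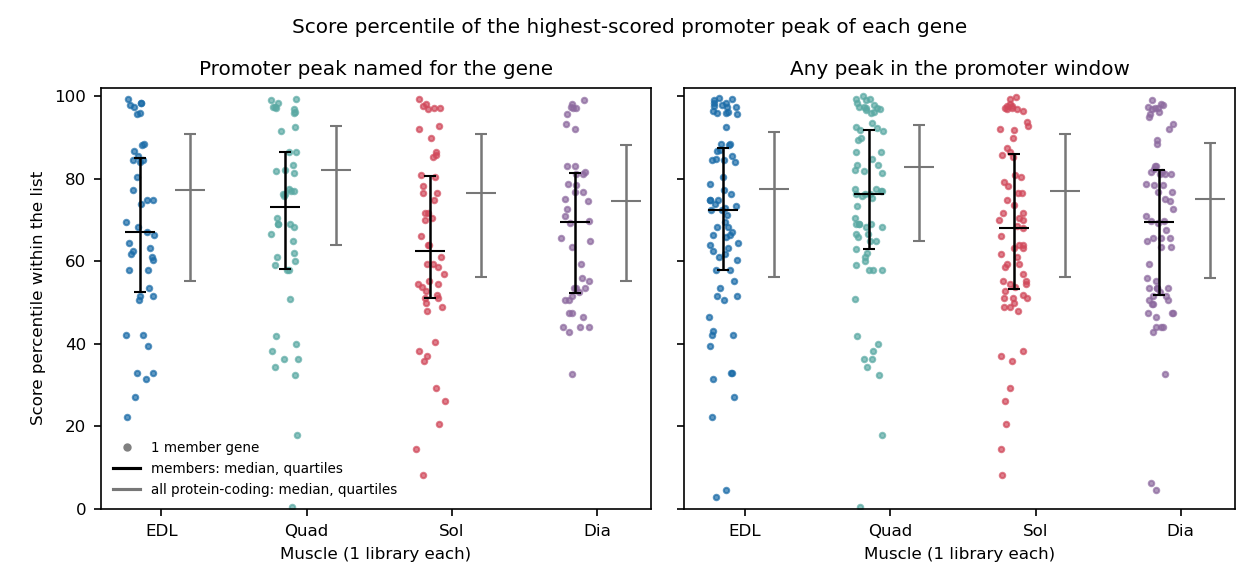
Score percentile of the best promoter peak (vertical axis, 0 to 100) for each member (points) in each muscle, by the gene named (left) and by position (right); black bars are the median and quartiles of the members and grey bars those of all protein-coding genes with a promoter peak. The black medians lay below the grey ones in every muscle, at 62.5 to 73.1 against 74.6 to 82.1 on the left.

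Strong and weak promoters were found in both subunits and in both classes of origin. Members with large subunit names had medians by position of 72.4 (EDL), 75.8 (Quad), 66.0 (Sol) and 69.3 (Dia), and those with small subunit names 74.2, 76.9, 69.5 and 69.8. All 4 lists held a peak in the window of 39 of 49 Mrpl genes (79.6%, 66.4% to 88.5%) and of 22 of 29 Mrps genes (75.9%, 57.9% to 87.8%). For the 46 members with a bacterial counterpart this was 35 (76.1%, 62.1% to 86.1%), and for the 31 acquired by mitochondria 26 (83.9%, 67.4% to 92.9%). The intervals overlapped in both comparisons.

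The strongest promoters were close to the top of every list. Mrps18b, named for its likeness to the bacterial protein S18, stood at 99.3 (EDL), 99.1 (Quad), 99.4 (Sol) and 97.3 (Dia); its peak, printed above for EDL, was centred at −326 to −283 bp, between its start and that of Ppp1r10. Mrps16 stood at 97.9, 99.2, 98.2 and 95.7, and Mrps14 at 98.2, 97.3, 97.0 and 98.1, both proteins of the small subunit with bacterial counterparts. In these genes no list differed from another by more than 3.48 percentiles. The large subunit proteins Mrpl34 (98.3, 97.3, 97.2 and 97.0) and Mrpl17 (97.4, 96.9, 96.9 and 97.0) completed the highest 5. Including peaks named for neighbours, Mrpl18 (98.9 to 99.9) and Mrps12 (97.6 to 99.2) were as high.

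Between these ends, Mrpl41 stood at 95.7, 98.3, 97.6 and 93.3 in EDL, Quad, Sol and Dia, Mrps28 at 95.9, 97.0, 92.7 and 92.0, Mrpl38 at 86.6, 92.4, 89.9 and 81.6, Mrps9 at 88.2, 91.5, 85.6 and 83.0 and Mrps33 at 88.4, 96.0, 85.3 and 81.2. All 5 stood above the median of the members in every list. Of the stalk proteins, which bind translation factors, Mrpl11 stood at 74.9, 82.1, 66.0 and 83.0 and Mrpl12 at 64.5, 76.4, 48.0 and 72.5. Mrpl58, a peptidyl-tRNA hydrolase built into the large subunit, stood at 51.6, 57.9, 55.3 and 53.4. Sol held the lowest value for both stalk proteins, and the 4 muscles lay close together for Mrpl58. Mrps15 (77.1, 75.8, 76.6 and 74.6) and Mrps24 (61.0, 61.1, 57.0 and 65.6), both of the small subunit, also varied little, whereas Mrpl53 (50.7, 70.5, 71.6 and 52.5) was higher in Quad and Sol than in EDL and Dia. The other large subunit members were Mrpl39 (85.5, 86.5, 80.8 and 70.9), Mrpl1 (84.0, 69.0, 69.9 and 76.8), Mrpl24 (80.3, 68.2, 80.3 and 78.4), Mrpl28 (73.9, 81.7, 63.9 and 75.1) and Mrpl42 (61.8, 66.6, 54.5 and 51.6). The other members with small subunit names were Mrps23 (84.5, 86.5, 70.5 and 81.2), Mrps30 (68.4, 76.9, 58.6 and 69.8), Mrps17 (60.3, 76.4, 63.9 and 64.9) and Mrps35 (63.2, 59.0, 49.0 and 53.4).

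The weakest promoters among those with a named peak in all 4 lists were, in the order EDL, Quad, Sol and Dia, Mrpl35 (27.1, 32.4, 20.5 and 47.6), Mrpl19 (33.0, 50.8, 38.2 and 42.9) and Mrpl4 (57.9, 36.4, 26.2 and 56.0), all large subunit proteins with bacterial counterparts. Mrps22 (39.6, 40, 51.0 and 47.6) and Mrps18a (51.6, 57.9, 52.8 and 46.4) followed. These genes kept a peak in each muscle although most of their scores lay in the lower or middle ranks.

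Agreement between muscles was measured at shared genes. For the 33 members with a named promoter peak in all 4 lists, the 4 peaks overlapped as 1 region in 33 cases, and in 29 with overlap of at least 50% of each peak; the other 4 were Mrpl9, Mrpl34, Mrpl39 and Mrpl53. By position 60 of 61 overlapped, the exception being Mrpl48, whose Dia peak lay at a different start site. Over all protein-coding genes the shares were 94.7% and, with 50% overlap, 81.7% by name, and 93.8% by position, each inside the interval of the members' share (89.6% to 100%, 72.7% to 95.2% and 91.3% to 99.7%). Spearman's rho of the percentiles across members with a peak in both lists ranged from 0.839 (EDL and Sol, 41 genes) to 0.895 (EDL and Dia, 36 genes); over all protein-coding genes it ranged from 0.907 to 0.923. By position it ranged from 0.807 (Sol and Dia, 62 genes) to 0.888 (EDL and Quad, 68 genes). Genes are not replicates, the points share the libraries and the promoter sequence, and these values are descriptions. Of the 43 EDL members by name, 41 (95.3%) were also named in Sol, which is 82.0% of the 50 Sol members. Across the other pairs 80% to 91.3% of either list was shared, the lowest being 40 of the 50 Sol members in Dia. Over all protein-coding genes, 7558 were named in both EDL and Sol, of 8439 in EDL and 8413 in Sol. Both Sol and Dia named 7343, of 8413 and 8280. By position each pair shared 91.5% to 100% of either list. That range is given for members only, and these shares mark no trait of the members.

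Within a gene, the rank differed between muscles. Among the 33 genes the difference between the highest and lowest of the 4 percentiles had a median of 14.8, against 12.2 over all protein-coding genes with a promoter peak in all 4 lists, and it was under 10 in 11 genes. Quad held the highest percentile in 19 of the 33, and Sol and Dia the lowest in 12 each. Over all protein-coding genes the median by name was also highest in Quad (82.1, against 77.1 in EDL, 76.6 in Sol and 74.6 in Dia). The counts of 11, 19 and 12 genes are given for members only, so they mark no trait of these genes. The lists differ in length, so ranks in a longer list are set against more weak peaks. Mrpl9, whose promoter is printed above, had the largest difference: 31.5 in EDL (counting interval 9.26 to 51.1), 81.3 in Quad (71.5 to 88.4), 59.4 in Sol (43.2 to 72.9) and 69.3 in Dia (56.4 to 79.2). Its EDL peak was centred at −105 bp from the start and those of the other muscles at 15 to 39 bp. The EDL interval lay below those of Quad and Dia, but Mrpl9 was picked for its large difference, so this comparison decides nothing. Such intervals were apart for 33.6% of all protein-coding genes with a named promoter peak in all 4 lists. The EDL rank also belongs to a peak centred elsewhere, and there was no replicate to set the difference against.

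Other wide differences by name had counting intervals that overlapped. Mrpl15 stood at 34.4 in Quad, 14.5 in Sol and 50.6 in Dia, with an intronic peak at 4.70 in EDL that counted by position only, and Mrpl52 at 62.5, 69.0, 37.0 and 55.1 in EDL, Quad, Sol and Dia. Mrpl10, a stalk protein, stood at 60.1 in Quad, 29.3 in Sol and 44.1 in Dia, and Mrpl4 is given above. Counting intervals of the highest and lowest muscle were apart for 7 of the 33 genes: Mrpl9, Mrpl12, Mrpl38, Mrpl41, Mrps16, Mrps18b and Mrps33. This was 21.2% of them (10.7% to 37.8%), against 33.6% of all protein-coding genes with a promoter peak in all 4 lists. By position they were apart for 13 of 61 (21.3%, 12.9% to 33.1%), against 32.9%, a share inside the interval of the members as it was by name. Mrpl12, another stalk protein, was highest in Quad (76.4) and lowest in Sol (48.0), while Mrps33 was highest in Quad (96.0) and lowest in Dia (81.2).

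Most promoter peaks were centred close to the start. In EDL 83.7% of the named promoter peaks (70.0% to 91.9%) were centred within 100 bp of it, in Quad 84.8% (71.8% to 92.4%), in Sol 78.0% (64.8% to 87.2%) and in Dia 81.8% (68.0% to 90.5%). For all protein-coding genes the shares were 68.9%, 70.0%, 68.9% and 69.6%, inside the members' interval in Sol and Dia and just below it in EDL and Quad. The median centre lay at −37.5 bp (Quad) to −29.0 bp (EDL) from the start, against −54.0 to −49.0 bp for all genes. The focus ratio, HOMER's fraction of a peak's tags near its centre, had medians of 0.614, 0.630, 0.624 and 0.593 for members and 0.622, 0.617, 0.614 and 0.607 for all genes, lower for members in EDL and Dia and higher in Quad and Sol.

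Peaks outside promoters made up 53.3% (EDL), 57.7% (Quad), 44.4% (Sol) and 38.9% (Dia) of the member peaks, below the 69.3%, 74.5%, 68.1% and 58.7% of whole lists. They joined into 83 regions: 38 in 1 list, 14 in 2, 9 in 3 and 22 in all 4. Most were weak or distant, with median percentiles of 37.0 in EDL to 46.4 in Dia, against 34.1 to 40 for all peaks outside promoters. A strong one lay in intron 2 of Mrps27, a protein with pentatricopeptide repeats, 8518 to 8603 bp after the start, at percentiles 97.2 (EDL), 98.1 (Quad), 96.3 (Sol) and 95.5 (Dia). It ranked above the peak at the Mrps27 promoter (84.7, 89.8, 63.2 and 63.5) in each list.

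Mrpl45 had the most peaks outside promoters (17 over the lists, in 5 regions), among them a region around −6146 bp, at percentiles 37.0 (EDL), 62.1 (Quad), 84.0 (Sol) and 56.0 (Dia); next were Mrps23 with 16, Mrpl15 and Mrpl33 with 13 each and Mrpl37 with 11. Mrps23 held 2 regions in all 4 lists, annotated to introns, at percentiles 67.9 to 80.7. The region centred at −6371 to −6339 bp lay before the first start of the gene. That at −3033 to −2965 bp was measured from a later start and lay inside the gene. The Mrpl37 peaks lay 17808 to 54655 bp past its start. Peaks outside promoters in 3 or 4 lists were also named for Mrpl48, Mrpl14, Mrps18a, Mrpl40, Mrps6, Mrpl3, Mrps31, Mrpl35, Mrpl13, Mrpl42 and Mrpl1, the strongest of each at percentiles 88.0, 87.6, 78.9, 63.2, 55.7, 47.6, 43.8, 43.4, 40.9, 34.4 and 34.3. Those peaks carry a member's name because its start is the nearest, and no contact with the gene was measured.

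Sequence features that the choice of genes did not use were counted in the RefSeq promoters, which were found for 69 of the 78 members (75 promoters). An ETS match was present in 34.7% of them (24.9% to 45.9%), against 11.6% of 21262 promoters of protein-coding genes. For YY1 it was 16.0% (9.40% to 25.9%) against 3.05%, and for NRF1 10.7% (5.50% to 19.7%) against 3.51%. SP1 matches were present in 52.0% against 46.2%, E-boxes in 9.33% against 7.84% and ERR sites in 5.33% against 4.08%, with the shares of all promoters inside the members' intervals. Cytosolic ribosomal promoters held ETS matches in 37.3% and oxidative phosphorylation promoters in 22.7%. Of the 31 ETS matches in member promoters, 28 began between 100 bases before and 50 bases after the start, and the median YY1 match began 15 bases after it. Median GC content was 58.7% for members and 56.3% for all promoters. A match is a description of sequence and shows no binding, and paired genes share part of these sequences. Promoters of the same gene were counted apart even where they overlap, as in Mrpl2, so the 7 promoters with an E-box belonged to 5 genes. The intervals do not allow for this.

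**Figure D5:**
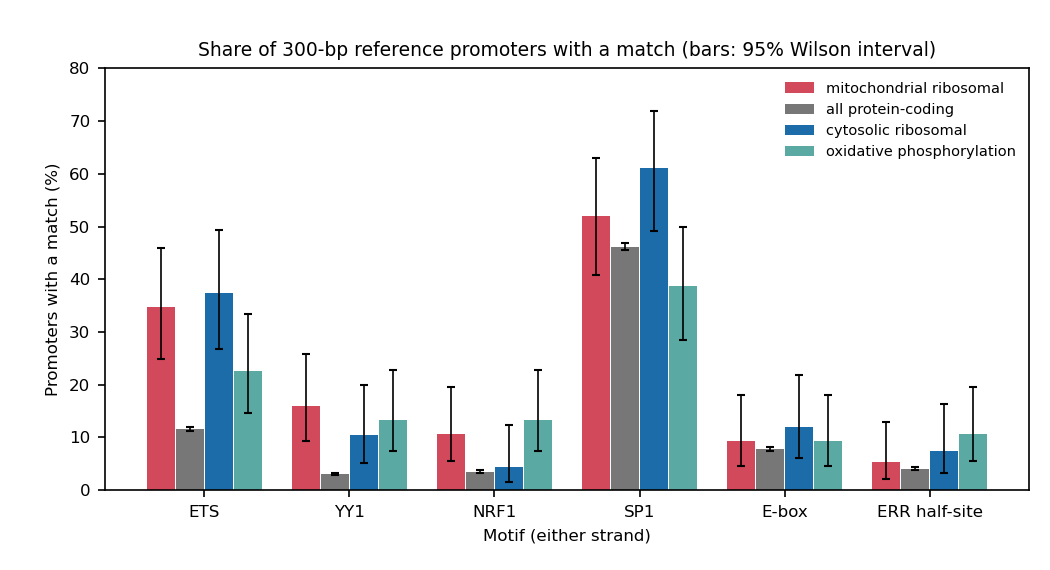
Share of reference promoters of 300 bases (vertical axis, percent) with a match to each of 6 motifs, for mitochondrial ribosomal genes, all protein-coding genes, cytosolic ribosomal genes and oxidative phosphorylation genes; error bars are 95% Wilson intervals. ETS, YY1 and NRF1 matches were in 34.7%, 16.0% and 10.7% of the member promoters, against 11.6%, 3.05% and 3.51% of all.

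The same counts in the best promoter peaks kept the order for ETS. For SP1 the order was the reverse of that in the promoters, where the share of all genes had been inside the members' interval. An ETS match lay in 39.5% (EDL), 32.6% (Quad), 32.0% (Sol) and 38.6% (Dia) of the member peaks, against 18.3%, 16.7%, 18.4% and 19.1% of all promoter peaks of the same list. SP1 matches lay in 41.9%, 50%, 46.0% and 47.7% of member peaks, against 63.8%, 62.9%, 64.8% and 68.1%. The SP1 share of all genes lay above the members' interval in EDL, Sol and Dia and inside it in Quad (36.1% to 63.9%). YY1 matches lay in 10% to 15.2% of member peaks against 3.72% to 5.0%. The YY1 share of all genes lay below the members' interval in EDL and Quad. It lay just inside that interval in Sol (4.35% to 21.4%, 5 peaks) and Dia (4.95% to 24.0%, 5 peaks). For NRF1, which was more frequent in the member promoters, the shares in peaks were 4.35% to 9.09% against 3.83% to 5.31%, with the value of all genes inside each interval of the members, as it was for E-boxes (2.33% to 4.55% against 7.27% to 8.66%). ERR sites lay in 4.65% (EDL), 4.35% (Quad), 8.0% (Sol) and 6.82% (Dia) of member peaks, against 1.75%, 1.45%, 1.70% and 1.86%. Those of all genes lay below the members' interval in Sol (3.15% to 18.8%, 4 peaks) and Dia (2.35% to 18.2%, 3 peaks) and inside it in EDL and Quad. Median GC content of the peaks was 61.2% to 63.0% for members and 64.1% to 65.1% for all.

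The other genes of mitochondrial gene expression were read from fixed lists of 60 genes. These were 5 ribosomal proteins with other symbols, 10 translation factors, 17 mitochondrial tRNA synthetases, 18 assembly factors and 10 genes of mitochondrial DNA and its expression. By name 43 (Sol) to 47 (Quad) of the 60 had a promoter peak in a list and 38 in all 4; by position 53 or 54 had one, and 49 in all 4. In percent, this was 71.7% to 78.3% by name and 88.3% to 90% by position, against 55.1% to 64.1% and 84.6% to 91.0% of the mitochondrial ribosomal genes. Over all protein-coding genes it was 37.8% to 42.3% by name and 44.3% to 48.5% by position. In all 4 lists it was 30.8% by name and 39.0% by position for all protein-coding genes. By position the synthetases had a peak in all 4 lists in 16 of 17 cases (Wars2 in none). The genes of mitochondrial DNA and its expression had one in 10 of 10. This compares with 15 of 18 assembly factors, 6 of 10 translation factors and 2 of 5 ribosomal proteins with other symbols. These sets hold only 5 to 18 genes each, and differences between them were not tested.

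Among them, Tufm, the elongation factor that brings tRNA to the mitochondrial ribosome, stood at 97.7 (EDL), 96.9 (Quad), 93.7 (Sol) and 93.5 (Dia). Mtrf1l, a release factor, stood at 98.8, 99.4, 98.9 and 98.3, and Mettl17, an assembly factor, at 98.8, 96.5, 98.2 and 97.3. Tfb1m, which methylates the small ribosomal RNA, had no promoter peak to its name but a peak in its window at 99.5, 99.7, 99.5 and 98.6. Tfam, which packages mitochondrial DNA, stood at 76.7, 77.5, 71.6 and 63.5. Mrrf, the ribosome recycling factor, had no promoter peak by either rule. Of the 5 ribosomal proteins with other symbols, Dap3 (82.4, 79.9, 79.6 and 81.9 by position) and Ptcd3 (69.6, 46.5, 60.3 and 61.4) had a peak in all 4 lists. Gadd45gip1 lacked one in Dia (47.6, 41.8 and 49.0 in the other lists), Chchd1 had one in EDL only (57.9) and Aurkaip1 in Sol only (84.0).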

How the data were processed

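The authors transposed nuclei of frozen, pulverised muscle, aligned read pairs to mm10 with Bowtie2, kept at most 1 tag per start position and called peaks in each library with HOMER (version not given in the sources used here); both tools are in the submitters' processing notes. Samples are labelled as pooled. The Tn5 offset and any removal of mitochondrial or repeat reads are not stated. The deposited lists give per peak the HOMER score (tags scaled per library), the focus ratio (a fraction) and the distance to the nearest TSS in bp. Peaks were 188 to 232 bp wide. Scores were ranked within each list only, as mid-rank percentiles. Depth is inferred from score steps: below a score of 10, 100% of scores were whole multiples within rounding.

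Genes, starts and sequences came from RefSeq GRCm38.p6. Each NM or NR start had a promoter window of 1 kb before it and 100 bp after it. Starts recomputed from the authors' distances and those in RefSeq differed by at most 100 bp for 100% of the member peaks. Counting intervals of a percentile come from the exact Poisson interval of its tags; shares have 95% Wilson intervals. With 1 library per muscle no p-value was computed. Named genes were those missing from a list by name, the 5 highest, 5 lowest and 5 most variable, those with outside peaks in 3 or more lists, and those with a neighbour's peak. Members, gene lists and motifs were chosen with earlier results of these data known. Scripts ran in Python 3.11.15 with pandas 2.3.3, NumPy 2.4.6 and SciPy 1.17.1 and were tested on simulated data.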

Additional observations from a re-analysis of the deposited data

How the results depend on the processing

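Of 56 values recomputed under an alternative, 35 stayed within their interval or within 1.5 times the count and 21 did not. Counting any peak in the promoter window moved the shares to 91.0% (EDL), 88.5% (Quad), 85.9% (Sol) and 84.6% (Dia) and the genes with a peak in all 4 lists to 61. Requiring the centre of the peak in the window, an alternative chosen after seeing the data, gave 87.2%, 84.6%, 82.1% and 82.1%, and 57 genes. Quad moved to 47.4% with only the 20000 highest peaks of each list, to 47.4% with the upper 50% of each list and to 70.5% with peaks within 1 kb on either side; Sol moved to 50% with the upper 50%. The median percentile was 38.0 (EDL), 37.6 (Quad), 32.9 (Sol) and 43.3 (Dia) among promoter peaks, and 57.5, 53.5 and 51.1 in EDL, Quad and Sol among the 20000 highest; both change what a peak is ranked against. Naming the peak by the transcript in its annotation, also chosen after seeing the data, moved none of 9 values. No paired analysis was possible because each muscle had 1 library and no test was made, so no replicate could be left out. The lowest listed peaks held 25 to 36 tags, which limits what a missing peak shows.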
